A study of Oryza sativa with 13 samples.

Results

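The regions described here carried a methylation peak in rice embryo at every stage sampled and acquired one in the endosperm only after the first stage sampled. Their members were chosen by measured values, namely the presence or absence of a listed peak in each of 7 libraries of the cultivar ZH-11 (Zhonghua11, japonica). Touching or overlapping peaks of the 7 lists were joined, and each joined region counted as present in a library that had at least 1 bp of peak in it. A region was a member when all 3 embryo libraries were present and the endosperm was absent at 2 DAP (days after pollination) and then present without a break up to 9 DAP. Of 70419 merged regions, 2791 were members (3.96%), covering 4.07 Mb.

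The groups were hand-dissected endosperm of ZH-11 at 2, 3, 6 and 9 DAP and embryo of ZH-11 at 3, 6 and 9 DAP, from plants grown in a phytotron, with 1 library each. Methylated DNA was captured with an antibody against 5-methylcytosine and sequenced (MeDIP-seq). Depth was 6833917, 7268516, 7302523 and 7465986 filtered tags (aligned reads kept by the peak caller) in endosperm at 2, 3, 6 and 9 DAP, against 8062289, 8231245 and 8423857 in embryo at 3, 6 and 9 DAP. The endosperm library at 2 DAP was the shallowest and had the shortest list, 32986 peaks, against 36511, 36871 and 36132 peaks at 3, 6 and 9 DAP. Endosperm depth rose at every stage, by little from 3 to 6 DAP. The age of the endosperm before its first peak and the depth of the library therefore cannot be told apart. This holds for absence at 2 DAP and for absence at the later stages. With 1 library per tissue and stage, and with members chosen by the same peaks, no test was run and every difference below is a description of these libraries.

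Embryo and endosperm of a cereal seed arise from the same double fertilisation event. The endosperm takes its maternal genomes from the central cell of the ovule, where DNA glycosylases of the DEMETER family, in rice ROS1a, remove 5-methylcytosine before fertilisation. Endosperm DNA is known for lower methylation than embryo DNA at many sites, and small RNAs guide new methylation in both tissues. An antibody capture reads all 5-methylcytosine together, in whatever sequence context, and a missing peak says that enrichment was not called, not that the DNA was unmethylated. The purity of the dissected tissues could not be checked, since peak lists hold no expression of marker genes. The genome build is not given in the sources used here, so positions are those of the authors' lists and no gene or sequence was assigned to them.

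Most members gained their endosperm peak at the first step. Among the 2791 members, 1741 (62.4%) had an endosperm peak from 3 DAP on, 315 (11.3%) from 6 DAP on and 735 (26.3%) at 9 DAP alone. Members made up 6.91% of the 40415 regions present in all 3 embryo libraries (95% exact Clopper-Pearson interval 6.66 to 7.16, counting error only). Of those 40415 regions, 18550 (45.9%) had an endosperm peak at all 4 stages, 13715 (33.9%) at none, and 1650 lost an endosperm peak in the mirrored way, present at 2 DAP and then absent up to 9 DAP from some stage on. The other 3709 (9.18%) had endosperm peaks that came and went.

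The library at 2 DAP decided much of the gained group. A region missing from 1 endosperm stage alone missed 2 DAP in 1741 cases, 3 DAP in 466, 6 DAP in 397 and 9 DAP in 889. The 2 DAP library was the shallowest of the endosperm libraries and the 9 DAP library the deepest. The 9 DAP list had the lowest median score and fold enrichment of the 7 lists, 118 and 6.02, and the 2 DAP list had 127 and 6.32. The part of depth and peak strength in these numbers was not tested. A region present at 1 endosperm stage alone had its peak at 2 DAP in 491 cases, at 3 DAP in 718, at 6 DAP in 472 and at 9 DAP in 735. Regions gained in endosperm outnumbered the regions lost in it by a ratio of 1.69. With the 2 DAP library left out, the ratio was 0.683, with 1705 regions gained and 2497 lost over 3, 6 and 9 DAP, so the excess of gains over losses was absent among the later stages. With each of the 7 lists shortened to the same length by score, 1115 regions were gained and 1156 lost (ratio 0.965), and with peaks of a fold enrichment of at least 5 there were 2164 and 2252 (0.961). The balance between gain and loss therefore depended on the 2 DAP library and on which peaks were kept. With lists of the same length and with the fold minimum it was nearly even. Among regions with endosperm peaks at 6 and 9 DAP but none at 3 DAP, 466 had a peak at 2 DAP and 315, the members, had none.

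**Figure D1:**
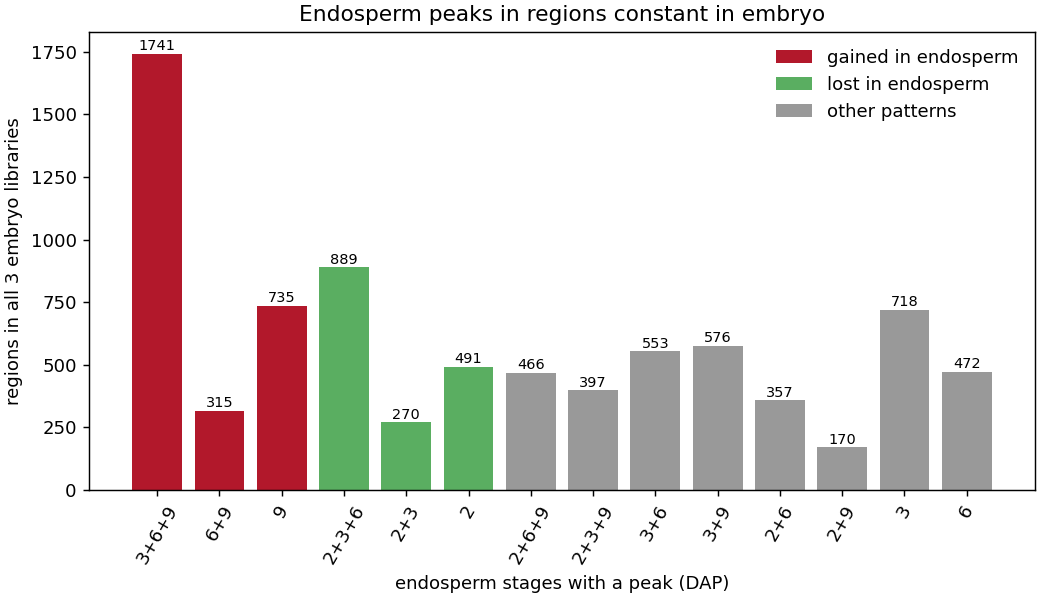
Number of regions present in all 3 embryo libraries (vertical axis) by the endosperm stages that had a peak (horizontal axis), for 14 patterns, leaving out the 18550 regions with a peak at all 4 endosperm stages and the 13715 with none. The highest bar, 1741 regions, is the pattern that lacks the 2 DAP library alone, and the mirrored pattern that lacks 9 DAP alone has 889.

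Gain in endosperm was not limited to sites already marked in embryo. Of all merged regions with a gained endosperm pattern, members were 40.2%. Another 2534 had no peak in any embryo library, and 1618 had one in 1 or 2 embryo libraries. These gained regions numbered 6943 in all. For background, 40415 of the 70419 merged regions were present in all 3 embryo libraries, a larger share than the 40.2%.

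In the endosperm the newly present peaks were weak, and the later they appeared the closer they lay to the calling limit. The peak score is -10 times the base-10 logarithm of the p-value that the peak caller gave, and the lists end at 50. At the first stage with a peak, the median score was 104 for members gained by 3 DAP (quartiles 77.8 and 144), 70.3 for those gained by 6 DAP (58.6 and 87.3) and 62.4 for those gained at 9 DAP (55.2 and 75.8). Regions with a peak at all 4 endosperm stages had median scores of 173, 215, 217 and 182 at 2, 3, 6 and 9 DAP. Weak endosperm peaks were not particular to the members. Lost regions had median scores of 77.8, 83.0 and 92.7 at 2, 3 and 6 DAP, where present, with 23.9%, 17.3% and 12.6% under 60. Scores under 60 were found for 7.98% of the members gained by 3 DAP, 27.6% of those gained by 6 DAP and 42.7% of those gained at 9 DAP, at the stage of first presence, against 3.85%, 1.48%, 1.64% and 2.86% of the shared regions at 2, 3, 6 and 9 DAP. The rule used the presence of these peaks, so low scores near the limit belong to the choice and show no trend of their own.

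Values close to the limit lay on both sides of the rule. Members gained by 3 DAP with a 3 DAP score under 60 numbered 139 and had a median of 4.82 tags per 1000000 filtered tags (RPM) in that library. Just outside, 714 regions with a peak at all 4 stages had a 2 DAP score under 60, with a median of 5.71 RPM there. A listed peak of an absent endosperm library lay within 100 bp of the region, without touching it, for 70 members (2.51%).

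Strong members were few. An endosperm score of at least 100 at every stage with a peak was held by 350 of the members gained by 3 DAP (20.1%), 17 of those gained by 6 DAP (5.40%) and 59 of those gained at 9 DAP (8.03%). The same held for 65.3% of the regions with a peak at all 4 stages. These shares required the score at 3, 2, 1 and 4 stages in turn, so they are unlike measures. The rule also used these endosperm peaks, so nothing is read from the differences. In embryo too the members scored lower than the shared regions. At least 100 in all 3 embryo libraries was reached by 48.4%, 56.2% and 53.1% of the 3 groups of members, against 71.4% of the shared regions.

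**Figure D2:**
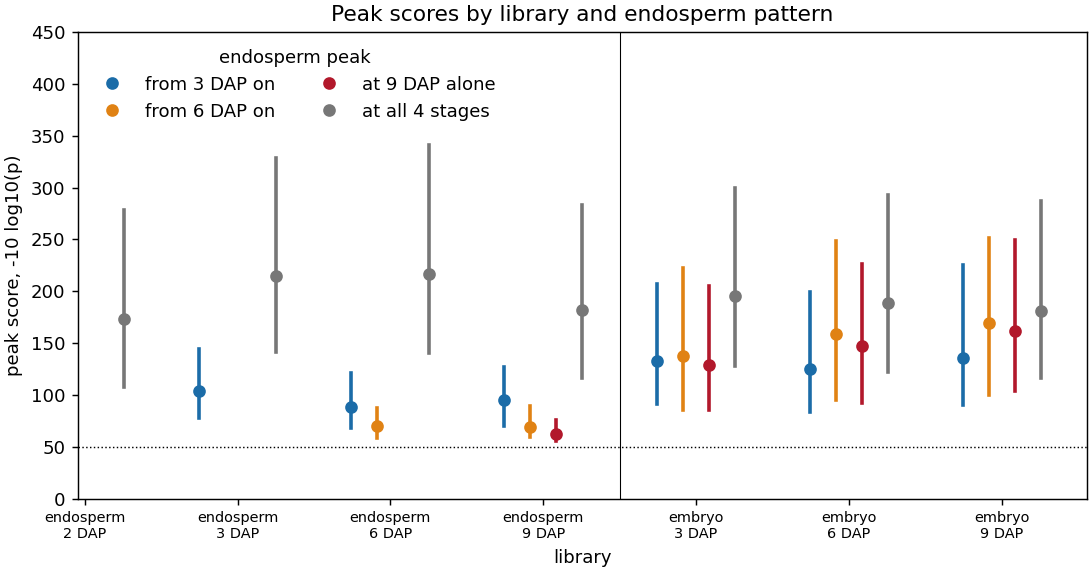
Peak score (vertical axis) in each library (horizontal axis, endosperm then embryo), with points for medians and bars for the quartiles over regions, for the 3 groups of members and for regions with a peak at all 4 endosperm stages. The dotted line is the limit of 50, and at 9 DAP the median of members gained at 9 DAP is 62.4 in endosperm and 162 in embryo.

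At the stage of first presence the endosperm score was below the embryo score of the same stage in 62.3% of the members gained by 3 DAP, 82.2% of those gained by 6 DAP and 92.8% of those gained at 9 DAP. For the regions with a peak at all 4 endosperm stages the shares were 39.1%, 37.8% and 48.5% at 3, 6 and 9 DAP. The rule used the endosperm peaks behind these shares, so nothing is read from the difference. Median tag levels in endosperm were 7.84, 7.39 and 7.90 RPM at 3, 6 and 9 DAP for the group gained by 3 DAP, against 10.05, 9.60 and 10.1 RPM in embryo at the same stages. For the group gained at 9 DAP they were 4.96 RPM in endosperm and 9.62 RPM in embryo at 9 DAP. The quartiles of these 2 libraries did not overlap, 4.29 to 5.89 RPM in endosperm and 7.12 to 12.9 RPM in embryo. In the shared regions at 9 DAP they overlapped, 9.38 to 24.9 RPM in endosperm and 9.02 to 20.2 RPM in embryo. The rule used the endosperm peaks behind the members' levels too, so nothing is read from the gap.

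The covered lengths differed between the tissues in the same direction as the levels in the groups compared here. At 9 DAP the median covered length of the group gained at 9 DAP was 697 bp in endosperm and 910 bp in embryo, and the endosperm peaks covered less than the embryo peaks in 84.5% of the regions. The same share was 71.1% in the group gained by 6 DAP and 54.0% in the group gained by 3 DAP, against 40.6% in the regions with a peak at all 4 stages. Per kb of peak, the level of the group gained at 9 DAP was 7.22 RPM in endosperm and 10.2 RPM in embryo. In the group gained by 3 DAP the covered lengths at 9 DAP were 910 bp in endosperm and 989 bp in embryo, and the levels per kb of peak 8.79 and 9.53 RPM. The rule used the presence of these endosperm peaks, so nothing is read from these differences or from their order across the groups.

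Differences of at least 2-fold between the tissues were counted at 9 DAP. Of 22950 constant embryo regions with an endosperm peak, 13.5% had at least 2-fold more RPM in endosperm than in embryo and 11.7% at least 2-fold less. Of the 2791 members, 232 (8.31%) were at least 2-fold higher in endosperm and 714 (25.6%) at least 2-fold lower. The rule used this contrast, so nothing is read from that difference. Among the members, the 2-fold lower share was 17.7% for those gained by 3 DAP, 32.1% for those gained by 6 DAP and 41.4% for those gained at 9 DAP.

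Once present, the endosperm signal of the members changed little in the median. For the 1741 members gained by 3 DAP, the median log2 ratio of RPM at 9 over 3 DAP in endosperm was -0.04 (quartiles -0.25 and 0.19), and 17 were at least 2-fold higher (0.976%) and 24 at least 2-fold lower (1.38%). Over the 20291 constant embryo regions with endosperm peaks at 3, 6 and 9 DAP the median was -0.10, and 1.17% were at least 2-fold higher and 1.11% at least 2-fold lower. The members' shares lay near this background. From 3 to 6 DAP the median log2 ratio in endosperm was -0.09 for the group gained by 3 DAP, against -0.02 for regions with a peak at all 4 stages. From 6 to 9 DAP it was 0.04 for the group gained by 3 DAP and 0.05 for the group gained by 6 DAP, against -0.11 for regions with a peak at all 4 stages. From 3 to 6 DAP, 1.32% of the group gained by 3 DAP were at least 2-fold higher and 2.07% at least 2-fold lower. Over the 20291 background regions the shares were 2.33% and 1.16%. From 6 to 9 DAP they were 2.43% and 1.17% of 2056 members with both peaks, against 1.22% and 1.55% of 21072 constant embryo regions. The rule used the presence of these endosperm peaks, so nothing is read from these differences.

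In embryo, where the rule used presence but not level, the members' level per region lay between those of the shared and the embryo-only regions. Median levels at 3, 6 and 9 DAP were 9.30, 9.48 and 9.85 RPM in members, 14.3, 13.8 and 13.5 RPM in regions shared by all 7 libraries, 7.19, 7.65 and 8.07 RPM in regions without an endosperm peak, and 10.2, 10.6 and 10.4 RPM in regions lost in endosperm. Region length followed the same order, with medians of 1164 bp in members, 1783 bp in shared regions, 850 bp in regions without an endosperm peak and 1254 bp in lost regions. Regions were joined over all 7 libraries, so endosperm peaks add to the length and the rule sets part of this order. Endosperm peaks can also join separate embryo peaks, whose tags are then summed in the level per region. Per kb of peak the classes were closer together, and the members had the lowest median of the 4 classes at each stage. These levels were 9.56, 9.69 and 9.84 RPM per kb at 3, 6 and 9 DAP in members, 10.7, 10.5 and 10.2 in shared regions, 9.72, 10.3 and 10.5 in regions without an endosperm peak, and 10.5, 10.7 and 10.4 in lost regions. Within the members they were 9.60, 9.47 and 9.53 in the group gained by 3 DAP. They were 9.81, 10.4 and 10.5 in the group gained by 6 DAP and 9.38, 9.92 and 10.2 in the group gained at 9 DAP. The group gained by 6 DAP thus did not share the lowest level.

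The embryo level changed little between 3 and 9 DAP in these regions. The median log2 ratio of embryo RPM at 9 over 3 DAP was 0.04 in members (quartiles -0.21 and 0.28) and 0.02 over all 40415 constant embryo regions. At least 2-fold higher at 9 DAP were 46 members (1.65%), against a background of 1.15%, and at least 2-fold lower were 53 members (1.90%), against 1.66%. Both shares lay near the background.

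Within the members, the embryo change was ordered by the stage at which the endosperm peak appeared. The median log2 ratio in embryo was -0.03 in the group gained by 3 DAP, 0.09 in the group gained by 6 DAP and 0.16 in the group gained at 9 DAP. The embryo level was higher at 9 than at 3 DAP in 47.1%, 59.7% and 69.5% of these groups. The regions with an endosperm peak at all 4 stages and at none had median log2 ratios of -0.09 and 0.15. Per kb of peak the medians were -0.03, 0.07 and 0.09 in the groups of members and -0.07 and 0.10 in those other regions. By that measure the groups gained by 6 DAP and at 9 DAP lay closer together. The quartile ranges of the RPM ratio overlapped between all these groups, and with 1 library per stage the order has no replicate check. Scaling the libraries on the shared regions adds 0.08 to the log2 ratio of every region and gives medians of 0.05, 0.17 and 0.24. The sign in the group gained by 3 DAP therefore depended on the scaling, which by construction leaves the order as it is.

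**Figure D3:**
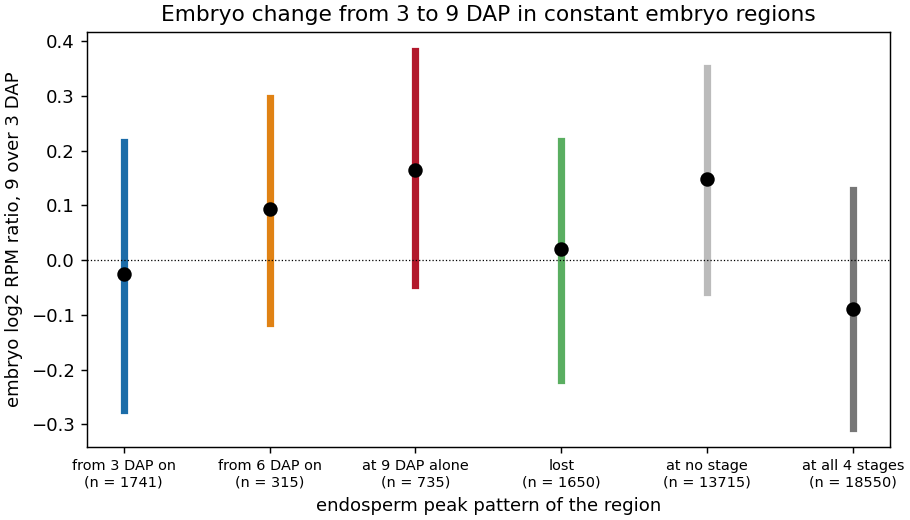
Log2 ratio of embryo RPM at 9 over 3 DAP (vertical axis) by the endosperm pattern of the region (horizontal axis), with points for medians and bars for the quartiles over regions. Medians run from -0.03 to 0.16 across the 3 groups of members, beside -0.09 for regions with a peak at all 4 endosperm stages and 0.15 for regions with none.

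The endosperm peaks lay at or near the position of the embryo peaks. The distance between the highest-scoring summits of endosperm and embryo in a region had a median of 48.0, 45.0 and 62.0 bp at 3, 6 and 9 DAP in members, and 77.9%, 77.3% and 73.2% of the summits lay within 200 bp of each other. In the shared regions the medians were 46.0, 55.0 and 88.0 bp, with 76.1%, 71.6% and 64.7% within 200 bp. Shared regions are longer and more often hold several peaks. Among regions with 1 peak in each of these libraries, 74.5% of the members and 68.8% of the shared regions had summits within 200 bp at 9 DAP. Among the lost regions, the 1159 with an endosperm peak at 3 DAP and the 889 with one at 6 DAP had medians of 39.0 and 40.0 bp, with 83.3% and 81.2% within 200 bp. Joining overlapping peaks into regions fixes part of this closeness in every class.

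In each group the 4 members whose weakest library scored highest are given region by region. The strongest member gained by 3 DAP lay on chromosome 11 from 4975728 to 4978594 (2867 bp), with 71.4, 73.0 and 58.1 RPM in endosperm at 3, 6 and 9 DAP against 49.2, 45.1 and 43.2 RPM in embryo at the same stages. Endosperm was above embryo at each of the 3 stages. No peak was listed at 2 DAP, so the tag number of the region there is not known. Its lowest score was 375 and its endosperm fold enrichment over the local background 3.73 to 4.56. The next, on chromosome 9 from 689570 to 691964, had 50.8, 52.0 and 43.4 RPM in endosperm and 38.8, 37.3 and 37.3 RPM in embryo.

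The third, on chromosome 1 from 34180965 to 34182783, had nearly equal levels in the tissues, 17.3, 15.9 and 15.3 RPM in endosperm and 17.4, 15.6 and 15.3 RPM in embryo. The fourth, on chromosome 7 from 29601932 to 29605705, had 41.1, 65.0 and 53.6 RPM in endosperm and 24.1, 30.1 and 20.5 RPM in embryo. In 3 of these 4 regions endosperm exceeded embryo at each stage. Over all 1741 members gained by 3 DAP, the endosperm level was above the embryo level in 47.4%, 43.5% and 44.6% of the regions at 3, 6 and 9 DAP.

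The strongest member gained by 6 DAP lay on chromosome 11 from 3104307 to 3105531, with 9.72 and 9.91 RPM in endosperm at 6 and 9 DAP and 9.43, 10.4 and 12.7 RPM in embryo at 3, 6 and 9 DAP. On chromosome 5 from 20555311 to 20556359 the levels were 7.67 and 7.23 RPM in endosperm and 14.8, 13.7 and 15.4 RPM in embryo. On chromosome 1 from 8708662 to 8710049 they were 7.94 and 8.71 RPM in endosperm and 14.5, 14.2 and 13.3 RPM in embryo. On chromosome 6 from 3646779 to 3647585 they were 4.79 and 6.30 RPM in endosperm and 9.43, 12.0 and 9.02 RPM in embryo. In all 4 regions every endosperm value was below the embryo value of the same stage. Over all 315 members gained by 6 DAP, the endosperm level was above the embryo level in 19.0% of the regions at 6 DAP and in 19.0% at 9 DAP. The rule used these endosperm peaks, so nothing is read from the direction.

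The strongest member gained at 9 DAP lay on chromosome 11 from 20107726 to 20108995, with 8.44 RPM in endosperm at 9 DAP and 9.92, 10.2 and 10.7 RPM in embryo at 3, 6 and 9 DAP. On chromosome 8 from 3429576 to 3430543 the levels were 5.76 RPM in endosperm and 13.1, 13.4 and 11.4 RPM in embryo. On chromosome 1 from 6355731 to 6356765 they were 8.71 RPM in endosperm and 10.8, 11.4 and 14.8 RPM in embryo. On chromosome 7 from 6839933 to 6841371 they were 10.05 RPM in endosperm and 10.2, 12.8 and 15.8 RPM in embryo. Each of these endosperm values was below all 3 embryo values of its region. Over all 735 members gained at 9 DAP, the endosperm level was above the embryo level of that stage in 8.3% of the regions. Here too the rule used these endosperm peaks, so nothing is read from the direction.

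**Figure D4:**
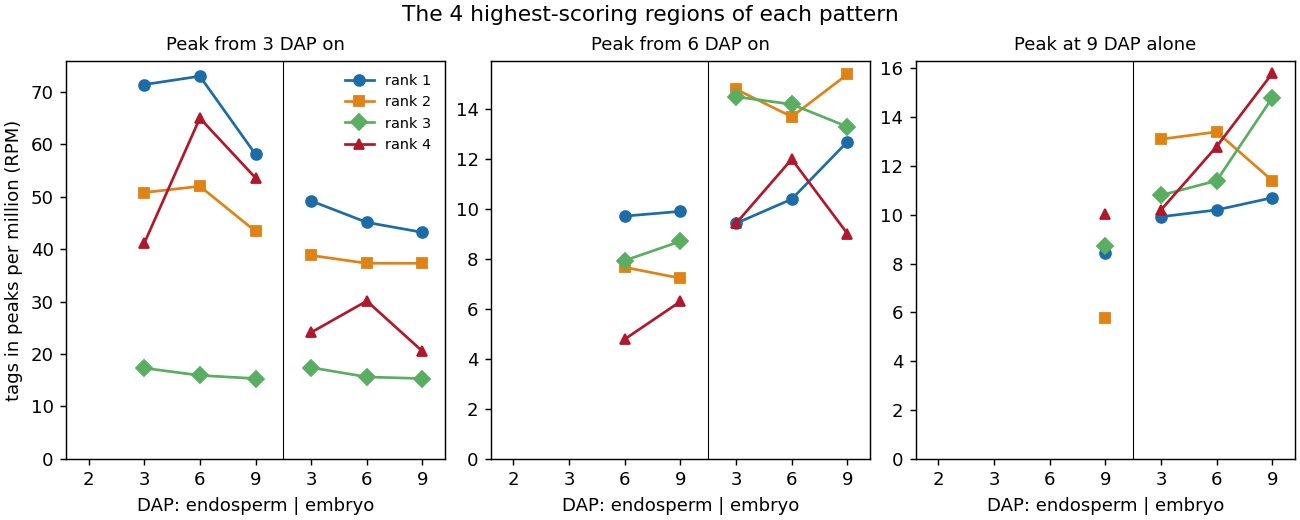
RPM (vertical axis, starting at 0 and scaled for each panel) in endosperm at 2, 3, 6 and 9 DAP and embryo at 3, 6 and 9 DAP (horizontal axis, endosperm left of the line), for the 4 highest-scoring members of each group. A missing point means that no peak was listed, which gives no tag number, and the 2 DAP column is empty by the rule.

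The longest members joined peaks of very unequal extent. The region on chromosome 5 from 18596096 to 18608377 (12282 bp) had 97.4, 230.5 and 206 RPM in endosperm at 3, 6 and 9 DAP and 30.1, 56.1 and 86.1 RPM in embryo, while its peaks covered 4781, 11078 and 11982 bp in endosperm and 2546, 4578 and 6761 bp in embryo. The second, on chromosome 7 from 26861157 to 26872625 (11469 bp), had 66.9, 100.4 and 60.7 RPM in endosperm and 31.1, 36.6 and 30.6 RPM in embryo. In both, every endosperm level exceeded every embryo level, and at each stage the endosperm peaks covered more of the region than the embryo peaks did. Embryo scores of the chromosome 5 region were 70.8 and 55.7 at 3 and 6 DAP, near the limit of 50. Its fold enrichment was 3.13 to 4.14 where present. The chromosome 7 region had a lowest score of 90.1 and a fold enrichment of 3.16 to 3.99.

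The largest embryo changes among the 2768 members with at least 30 tags in each embryo library were found in different groups. A region gained at 9 DAP, on chromosome 12 from 3131920 to 3133137, had 4.15 RPM in endosperm at 9 DAP and 3.97, 9.23 and 13.8 RPM in embryo at 3, 6 and 9 DAP, a log2 ratio of 1.79 at 9 over 3 DAP. On chromosome 5 from 5934991 to 5936451, likewise gained at 9 DAP, the levels were 4.55 RPM in endosperm and 3.97, 10.9 and 13.8 RPM in embryo, again a log2 ratio of 1.79. The 3 DAP embryo values of both rested on 32 tags, where the weakest peak of that list held 25.

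The largest embryo decreases were in regions gained by 3 DAP. On chromosome 10 from 8773617 to 8780619 the levels were 65.6, 68.5 and 93.0 RPM in endosperm at 3, 6 and 9 DAP and 42.0, 25.8 and 10.1 RPM in embryo, a log2 ratio of -2.06 at 9 over 3 DAP. The covered length went with it, 4196, 5544 and 7003 bp in endosperm and 4037, 2584 and 1145 bp in embryo. On chromosome 7 from 5491515 to 5494113 the levels were 14.0, 15.5 and 23.3 RPM in endosperm and 16.2, 15.4 and 4.15 RPM in embryo, a log2 ratio of -1.97. The 9 DAP embryo value of this region rested on 35 tags and a score of 52.0, where the weakest peak of that list held 26 tags.

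The members took similar shares of the constant embryo regions across the genome. Among the 12 chromosomes they made up 6.34% (chromosome 4) to 7.44% (chromosome 11) of the constant embryo regions, while the lost regions made up 3.42% to 4.97%. In 1 Mb bins ranked by their embryo peak coverage, members were 7.07%, 6.39%, 7.04%, 7.32% and 6.59% of the constant embryo regions from the quintile with least embryo coverage to that with most. The shared regions were 40.9% of the poorest and 55.2% of the richest quintile, and regions without an endosperm peak 39.7% and 23.7%, so those classes differed along the chromosomes by more than the members did. Counted among the constant embryo regions that had any endosperm peak, members were 11.7% in the poorest and 8.63% in the richest quintile.

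**Figure D5:**
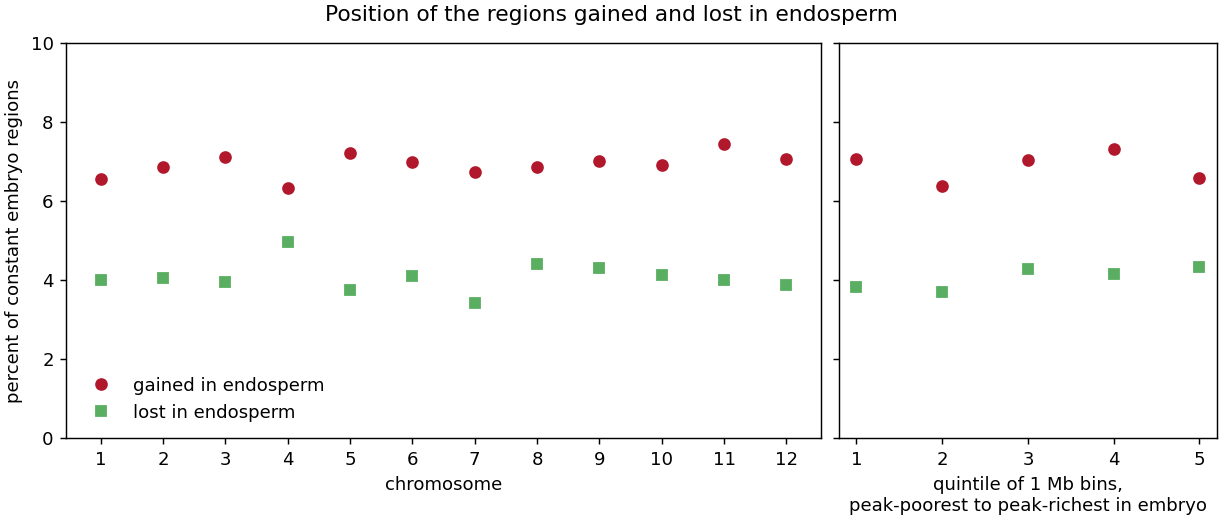
Regions gained and lost in endosperm as percent of the regions present in all 3 embryo libraries (vertical axis, starting at 0), by chromosome (left) and by quintile of 1 Mb bins ranked by embryo peak coverage (right). The gained share stays between 6.34% and 7.44% by chromosome and between 6.39% and 7.32% by quintile.

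Members lay next to each other about as often as their share of the regions. The nearest other constant embryo region was itself a member for 7.77% of the members, against the 6.91% that members make up of all such regions, and for 7.46% of the shared regions. It was a shared region for 52.1% of the members gained by 3 DAP and 39.2% of those gained at 9 DAP, and a region without an endosperm peak for 27.2% and 39.9%. For comparison, the nearest region was a shared one for 49.3% of the shared regions and 38.2% of the regions without an endosperm peak, so the share for the members gained at 9 DAP lay next to that of the regions without an endosperm peak.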

How the data were processed

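The 7 ZH-11 libraries of the series' 13 samples were used, and the 6 samples of 93-11 were not analysed here. Per the file headers, each list was called on 1 library with MACS 1.4.2, without a control library, at a p-value limit of 1e-05, with 1 tag kept per position and a local background over 10 kb of the same library, which can lower scores inside densely enriched stretches. Bowtie2 is named in the submitters' processing notes. The deposited tag counts are whole tags per peak, not scaled to depth. The deposited score is -10 times the base-10 logarithm of the p-value, the deposited fold enrichment is a ratio to the local background, and peak length and summit are in bp. Libraries were amplified for 15 PCR cycles, per the labels' protocols.

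Lists were merged in Python 3.11.15 with pandas 2.3.3, tested on simulated lists of known presence. RPM values were summed over the peaks that a library had in the region and scaled to 1000000 filtered tags. Members, groups and comparisons were chosen with earlier results of these data known. Named regions were the 4 of each group whose weakest library scored highest, the 2 longest, and the 2 largest embryo changes each way among members with at least 30 tags in every embryo library. The alternatives tried were other score and fold minimums, equal numbers of peaks, other overlap and merging rules, other scalings and leaving out each library.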

Additional observations from a re-analysis of the deposited data

How the results depend on the processing

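Left out in turn, the 7 libraries gave 1705 to 3384 members, 4.19% to 8.36% of the constant embryo regions, and gained to lost ratios of 0.683 to 2.34. The lowest values came without endosperm at 2 DAP, which reversed the ratio to 0.683, and the highest ratio came without endosperm at 9 DAP. Equal numbers of highest-scoring peaks, 32986 in each list, gave 1115 members (4.62%) and a nearly even ratio of 0.965. By group, 607, 138 and 370 regions were gained by 3, by 6 and at 9 DAP. A fold enrichment of at least 5 gave a nearly even ratio of 0.961 with 2164 members. A score of at least 100 gave 1602 members (6.54%), a ratio of 1.39 and 1081, 158 and 363 regions by group, and 13.9% of the main members remained members. Equal numbers without endosperm at 2 DAP, chosen after seeing the data, gave 1023 members (3.82%) and a reversed ratio of 0.722. Presence defined by peaks over at least 50% of the region gave 7.44%. The cause of these shifts was not tested, except that leaving out a library or peaks changes presence by construction.

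Scaling on the shared regions moved the mean of the members' median embryo levels from 9.54 to 10.2 RPM, their embryo log2 change from 0.04 to 0.12 and the 3 DAP endosperm level of the group gained by 3 DAP from 7.84 to 7.44 RPM. With scores of at least 100 these were 12.8 RPM, 0.00 and 12.1 RPM. Members with 1 peak per library had a median summit distance of 57.0 bp at 9 DAP. With equal numbers, members were 4.89% of the peak-poorest and 4.16% of the peak-richest quintile. With the full lists, counted among regions with any endosperm peak, they were 11.7% and 8.63%. The other 41 values recomputed stayed within their spread or within 1.5 times the count. Depth of 1 library per stage limits all of them.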

Other observations

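In the 367 complete 1 Mb bins the number of members had a median of 7 (quartiles 6 and 9) and a range of 0 to 17. The bin with most members was on chromosome 10 from 11000001 to 12000000, with 17 of its 117 constant embryo regions (14.5%). Next came chromosome 5 from 26000001 to 27000000 with 15 of 99 and chromosome 2 from 29000001 to 30000000 with 15 of 122. Chromosome 6 from 18000001 to 19000000 had no member among 28 constant embryo regions. The bins were picked with these numbers in view.

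Of the runs of members that follow each other without another constant embryo region between them, 2406 held 1 member, 164 held 2, 15 held 3 and 3 held 4. The 3 longest runs were at 43188167 to 43221960 of chromosome 1, 21887125 to 21922964 of chromosome 6 and 11408076 to 11431147 of chromosome 10, the last inside the bin with most members. On the unplaced sequences there were 5 members.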
